A study of Solanum lycopersicum with 6 samples.

Results

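The 5 tomato genes described here have natural variants that separate small, round wild tomatoes from large or elongated cultivated ones, and their DNA methylation was compared between RNA polymerase IV knockout and wild-type embryos. The 5 members were FW2.2 (Solyc02g090730), KLUH, also called FW3.2 (Solyc03g114940), CSR, also called FW11.3 (Solyc11g071940), OVATE (Solyc02g085500) and SUN (Solyc10g079240). They were found by gene ID in the authors' 3 deposited lists of differentially methylated regions, which assign each region to 1 gene. The members held 23 of the 132092 listed regions, and all 5 were among the 27473 genes named in the lists. The embryos were taken 21 days after flowering from tomato (Solanum lycopersicum) of the dwarf cultivar Micro-Tom. Bisulfite sequencing was done on 3 libraries labelled as a knockout of SlNRPD1, written nrpd1 here, and on 3 wild-type (WT) libraries. The labels give neither the knockout allele nor the number of independent lines, and do not tie the libraries to plants. The deposited lists hold 1 mean level per genotype and no read numbers, so depth is unknown, no spread between libraries can be given, and no difference below was tested between libraries.

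Cytosines in plants are methylated in 3 sequence contexts, CG, CHG and CHH, where H is any base but G. RNA polymerase IV has NRPD1 as its catalytic subunit, and its transcripts are made into the small RNAs that guide new methylation to DNA. CHH methylation cannot be copied between strands at replication and has to be set anew, while CG and CHG methylation can be maintained on the copied strands. The 5 genes act in different ways on the growing fruit. FW2.2 encodes a small membrane-associated protein that restrains cell division. KLUH encodes a cytochrome P450 that promotes cell proliferation, and CSR encodes a protein that affects the size of fruit wall cells. OVATE belongs to the OVATE family of growth repressors, and its loss gives elongated fruit. SUN belongs to the IQ-domain family, and its duplication and raised expression also give elongated fruit. Gene expression was not analysed here.

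All 23 member regions were less methylated in nrpd1 embryos than in WT embryos, and 22 of them were in the CHG and CHH contexts. There were 14 CHH losses, 8 CHG losses and 1 CG loss, and 0 gains. Over the whole lists, 95.8% of entries were losses in CHH, 88% in CHG and 67.7% in CG, so the shared direction of the member regions was that of most of the lists. A CHH loss and a CHG loss were assigned to each of the 5 members, against 90.9% and 67.3% of named genes, and a CG loss to 1 of 5, against 25.2%. Each of the 5 members had a CHH loss in its promoter, which the authors' annotation takes as within 2 kb of the transcription start. Of all genes named in the lists, 68.3% had one. A CHG loss in the promoter was listed for FW2.2 and SUN, 2 of the 5 members, against 36.5% of named genes. No member had a CG loss in its promoter or body, which was the case for all but 13.4% of named genes. These shares leave the members near the common pattern, and with 5 genes no departure from it can be read.

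**Figure D1:**
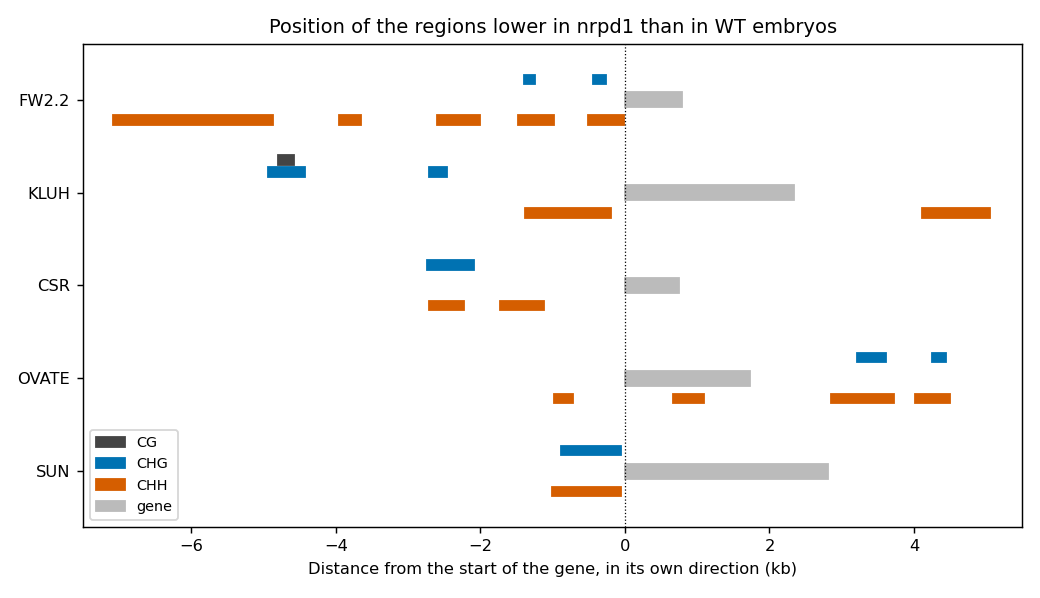
Position of the 23 member regions, with distance from the start of each gene in kb on the x axis, counted in the direction of the gene, and 1 row per gene. Bars above a gene (grey) are CG and CHG losses and bars below it are CHH losses. FW2.2 has 5 CHH losses reaching 7083 bp upstream of the gene start, SUN has its 2 regions just before the start, and OVATE has most of its regions beyond the end of the gene.

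FW2.2, on chromosome 2 at 50292691 to 50293481 of assembly SL4.0, stood next to the longest run of listed losses of the 5 genes. Its 5 CHH losses all lay upstream and covered 4096 bp and 939 cytosines between them. Of named genes, 16.6% had at least 5 CHH losses, and the median was 2.

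The promoter regions of FW2.2 had low CHH levels in both genotypes. The region nearest the gene (50292186 to 50292674), which ended 17 bp before the gene start, had 5.39% CHH methylation in nrpd1 embryos and 20.6% in WT embryos. The next one (50291217 to 50291707), 984 bp before the start, had 4.04% in nrpd1 embryos and 15.6% in WT embryos. Both were left with about the same share of the WT level, 26.2% and 25.9%.

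Farther upstream, FW2.2 had higher CHH levels and 2 regions that kept the larger part of theirs. The region 2005 bp upstream (50290085 to 50290686) had 19.2% in nrpd1 embryos and 32.6% in WT embryos, leaving 59.0% of the WT level. The region 3654 bp upstream (50288732 to 50289037) had 23.9% in nrpd1 embryos and 37.9% in WT embryos, leaving 63.0%. These shares left were higher than in 96.3% and 98.2% of all CHH losses. The most distant region, 4876 bp upstream (50285608 to 50287815), was also the widest of the 14, with 2208 bp. It had 11.9% in nrpd1 embryos and 37.6% in WT embryos, a difference of 25.7 points that exceeded 92.6% of all CHH losses. Over the 5 CHH regions of this gene, levels ranged between 4.04% and 23.9% in nrpd1 embryos and between 15.6% and 37.9% in WT embryos.

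Both CHG losses of FW2.2 lay wholly inside its promoter CHH losses. The one 1246 bp upstream (50291291 to 50291445) had 13.4% CHG methylation in nrpd1 embryos and 43.3% in WT embryos. The one 264 bp upstream (50292252 to 50292427) had 9.04% in nrpd1 embryos and 29.6% in WT embryos, on 6 cytosines. Their WT levels were low for listed CHG losses, above 14.7% and 3.70% of them.

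**Figure D2:**
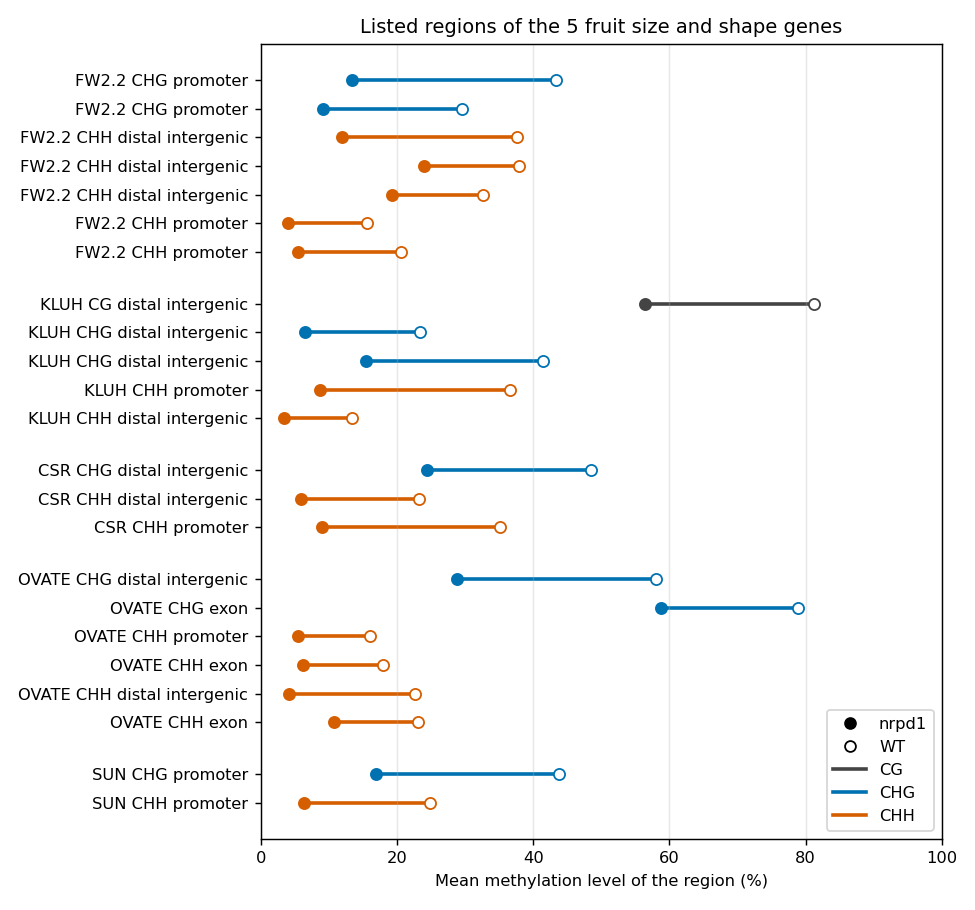
Mean methylation level in percent (x axis) of each member region in nrpd1 embryos (filled circles) and WT embryos (open circles), 1 row per region, ordered within a gene by context and from upstream to downstream. Points are the authors' means over 3 libraries and carry no error. Every filled circle is left of its open circle, and the CHH regions of FW2.2 outside the promoter keep the highest CHH levels in nrpd1 embryos.

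KLUH, on chromosome 3 at 59217389 to 59219730, had the largest CHH difference of the 14 member regions, and it lay in the promoter. This region (59219919 to 59221109), 189 bp before the gene start and 1191 bp wide, had 8.74% in nrpd1 embryos and 36.5% in WT embryos. The difference of 27.8 points exceeded 93.1% of CHH losses annotated to promoters. KLUH also had the smallest CHH difference of the members. That region (59214681 to 59215613), 1776 bp past the end of the gene, had 3.34% in nrpd1 embryos and 13.4% in WT embryos. Its difference of 10.04 points was just above the smallest listed anywhere, 10 points, so a slightly smaller one would not have been listed.

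KLUH was the only one of the 5 members with a listed CG loss. The region lay 4575 bp upstream (59224305 to 59224536), held 4 CG cytosines, the fewest found in any listed region, and had 56.4% CG methylation in nrpd1 embryos and 81.2% in WT embryos. It fell wholly within a CHG loss (59224157 to 59224671) that had 6.44% in nrpd1 embryos and 23.3% in WT embryos. The CHG level there in WT embryos was lower than in all but 1.09% of CHG losses, beside a CG level above the median of CG losses. A second CHG loss, 2464 bp upstream (59222194 to 59222439), had 15.4% in nrpd1 embryos and 41.4% in WT embryos. Neither CHG region of KLUH overlapped a listed CHH loss, while the 6 CHG losses of the other 4 genes each did. Over all CHG losses, 75.7% overlapped a CHH loss, and the contrast between the genes was not tested.

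CSR, on chromosome 11 at 53331611 to 53332357, had 3 losses, all of them upstream. Its promoter CHH loss (53329885 to 53330489), 1122 bp before the gene start, had 9.03% in nrpd1 embryos and 35.2% in WT embryos. The difference of 26.1 points was second among the 14 to that of the KLUH promoter. The other CHH loss (53328898 to 53329390), 2221 bp upstream, had 5.94% in nrpd1 embryos and 23.3% in WT embryos, and lay within a CHG loss (53328871 to 53329525) with 24.4% in nrpd1 embryos and 48.5% in WT embryos. Both CHH regions were left with nearly the same share of the WT level, 25.5% and 25.7%, and the CHG region with 50.3%.

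OVATE, on chromosome 2 at 46380291 to 46382023, had 6 losses, of which 4 lay beyond the end of the gene. Its promoter CHH loss (46379310 to 46379577), 714 bp before the gene start, was the weakest promoter loss of the members, with 5.43% in nrpd1 embryos and 16.0% in WT embryos. It was also the narrowest of the 14 CHH losses, at 268 bp. OVATE was the only member with a loss inside its own gene. This CHH region (46380960 to 46381378), in exon 1 of 2, had 6.17% in nrpd1 embryos and 18.0% in WT embryos. The share of all named genes with a loss inside their own body was not counted, so this cannot be read as particular to OVATE.

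Beyond the end of OVATE, the regions covered a pair of sites in both contexts. At the nearer site, the CHH loss (46383139 to 46384016), 1116 bp past the gene, had 4.09% in nrpd1 embryos and 22.6% in WT embryos. It was left with 18.1% of the WT level, the least of the 14 and less than in all but 2.59% of CHH losses. The CHG loss inside it (46383508 to 46383900) had 28.7% in nrpd1 embryos and 58.0% in WT embryos. The farther site lay in exon 1 of 6 of a neighbouring gene, Solyc02g085520, for which the lists give no name, although the authors assigned it to OVATE. There, CHG methylation (46384535 to 46384737) was 58.8% in nrpd1 embryos and 78.8% in WT embryos, and CHH methylation (46384299 to 46384788) was 10.7% in nrpd1 embryos and 23.1% in WT embryos. More of the WT level was left at the farther site than at the nearer one in both contexts, 74.6% against 49.6% in CHG and 46.2% against 18.1% in CHH. Counting this exon, 3 of 5 members had a CHG loss in a promoter or gene body, against 43.7% of named genes. Without exons of other genes the count was 2 of 5, against 43.1%.

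SUN, on chromosome 10 at 59930248 to 59933060, had 2 losses that covered almost the same stretch of promoter. The CHH loss (59929236 to 59930189) ended 59 bp before the gene start and had 6.31% in nrpd1 embryos and 24.8% in WT embryos. The CHG loss (59929359 to 59930193) ended 55 bp before the start and had 16.9% in nrpd1 embryos and 43.8% in WT embryos. The pair shared 831 bp, which was 99.5% of the CHG region. SUN had the widest CHG loss of the members, at 835 bp, wider than 92.0% of all CHG losses. No further region was assigned to SUN, and none of another gene was listed within 5 kb of it.

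By WT level, the promoter CHH regions ordered the genes as KLUH, CSR, SUN, FW2.2 and OVATE, with the higher region of FW2.2 taken. In percentage points, the levels left in nrpd1 embryos spanned a narrower range over the 6 promoter regions, 4.04% to 9.03%, than the WT levels, 15.6% to 36.5%. The nrpd1 levels were also lower, so the narrower range does not show that the genes became more alike. KLUH and CSR stood close together in both genotypes, as did FW2.2 and OVATE in nrpd1 embryos. Without values for single libraries it is not known which of these neighbours differed beyond their spread. The share of the WT level left was 23.9% to 34.0% over the 6 promoter regions, with a median of 25.8%, beside a median of 29.8% over all promoter CHH losses. Over the 8 CHH losses outside promoters it ranged more widely, between 18.1% and 63.0%.

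As a set, the member losses resembled the listed losses in CHH, and in CHG their median WT level was lower. The 8 CHG losses came from 5 genes and are not replicates, so no departure can be read from them. The 14 CHH losses had a median of 6.24% in nrpd1 embryos and 23.2% in WT embryos, and a median difference of -14.6 points. Over all 73614 CHH losses the medians were 8.00% in nrpd1 embryos, 25.1% in WT embryos and -15.7 points. Less of the WT level was left in 9 of the 14 than in the median CHH loss, under which 50% of CHH losses lie by definition. In CHG, 7 of the 8 member losses had a WT level under the median of all CHG losses, again with 50% below it by definition. The medians of the 8 were 16.1% in nrpd1 embryos and 43.6% in WT embryos, beside 34.7% and 67.9% over all 37203 CHG losses. The median difference of the members was -25.04 points and that of all CHG losses was -27.9 points. The median share of the WT level left was 37.9% in the 8 member losses and 52.6% over all CHG losses. It was under the latter value in 7 of the 8. These medians describe regions that had been called as different.

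**Figure D3:**
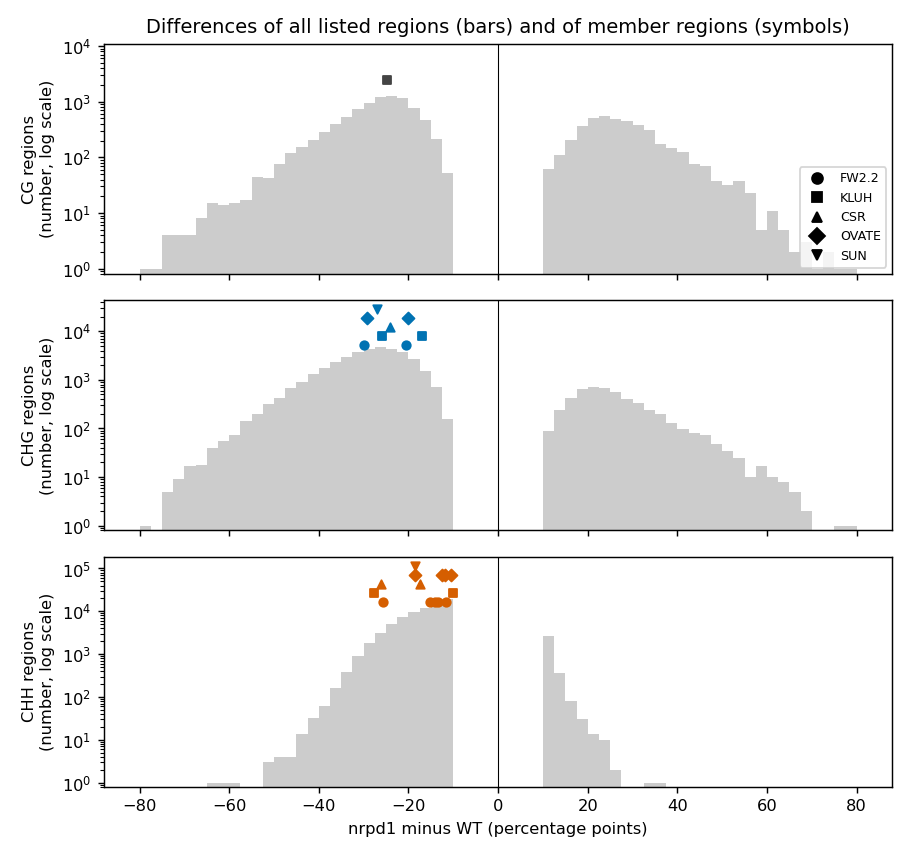
Number of listed regions (y axis, log scale) by the difference in level, nrpd1 minus WT, in percentage points (x axis), for CG, CHG and CHH. Symbols mark the 23 member regions by gene at their difference, and their height has no meaning. All symbols are on the negative side, between -29.9 and -10.04 points.

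Of the 23 member regions, 14 overlapped a listed region of another context. Each overlap joined regions of the same member, so both sides of it were counted. The matching count over all listed regions was not made. A CHH loss overlapped 6 of the 8 CHG losses by at least 1 bp, against 75.7% of all CHG losses, and a CHG loss overlapped 6 of the 14 CHH losses, against 35.4% of all CHH losses. Both shares were near those of all losses. In density of CHH cytosines the 14 regions ranged between 13.8 and 27.1 per 100 bp, with a median of 22.4 beside 22.1 over all CHH losses. The CSR region 2221 bp upstream was the sparsest, sparser than all but 1.90% of CHH losses.

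Genes with a pattern like that of each member were sought by the width-weighted mean levels of their assigned regions in both genotypes. The search covered the 10976 genes on chromosomes 1 to 12 that had regions in CHG and CHH and none in CG, and for KLUH the 7278 with regions in all 3 contexts. For CSR the closest gene was Solyc10g077130, at a distance of 0.829 points over 4 mean levels. Its CHH level was 8.03% in nrpd1 embryos and 30.2% in WT embryos, and its CHG level was 23.9% in nrpd1 embryos and 49.0% in WT embryos. The closest gene to SUN was Solyc01g110340 at 0.855 points. That to OVATE was Solyc03g121060 at 1.05 points, and that to FW2.2 was Solyc05g050210 at 1.31 points. Each of these 4 distances, counting that of CSR, is the smallest found in a search over the 10976 genes. Smallest distances for genes other than the members were not computed, so a close match cannot be read as particular to a member. For KLUH the closest gene was Solyc03g025200, at 6.82 points over 6 mean levels. The distance is the root of the summed squares and grows with the number of levels, so that of KLUH is not comparable with the others. The lists and the reference table do not pair these IDs with names.

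A further 8 tomato genes known for fruit size, locule number or shape were described in the same way. They were LC (the tomato WUSCHEL gene) and FAS (the tomato CLAVATA3 gene), which set locule number through the size of the floral meristem, ENO, FAB and FIN, which also restrain that meristem, SlOFP20 of the OVATE family, SlTRM5, whose protein family binds OVATE family proteins, and GLOBE, which affects fruit shape. They held 65 listed regions, all losses, with 40 in CHH, 18 in CHG and 7 in CG. Names of these genes were paired with gene IDs from general knowledge, and no ID could be matched in the reference table. No listed region was assigned to FAS, so it was not among the named genes, and the counts below are over the other 7. A CHH loss in the promoter or body was listed for 6 of these 7, against 73.2% of named genes. The same held for 5 of the 5 members. A CHG loss there was listed for GLOBE alone, 1 of the 7, against 43.7% of named genes. It was listed for 3 of the 5 members, or 2 of 5 without exons of other genes. The difference between the 2 lists was not tested. Over the 40 CHH losses the median was 7.36% in nrpd1 embryos and 22.1% in WT embryos, with a median of 30.4% of the WT level left.

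GLOBE was the only one of the 8 with losses in its promoter or body in more than 1 context. Its promoter had a CHH loss 248 bp before the gene start with 14.5% in nrpd1 embryos and 36.5% in WT embryos. A promoter CHG loss 68 bp before the start had 57.3% in nrpd1 embryos and 85.6% in WT embryos. In WT embryos that CHG level was above that of any promoter CHG loss of the members, and the CHH level was close to that of the KLUH promoter. A second promoter CHG loss, 1498 bp upstream, had 32.3% in nrpd1 embryos and 62.5% in WT embryos. A CHH loss in intron 1 of 4 had 8.42% in nrpd1 embryos and 28.8% in WT embryos.

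**Figure D4:**
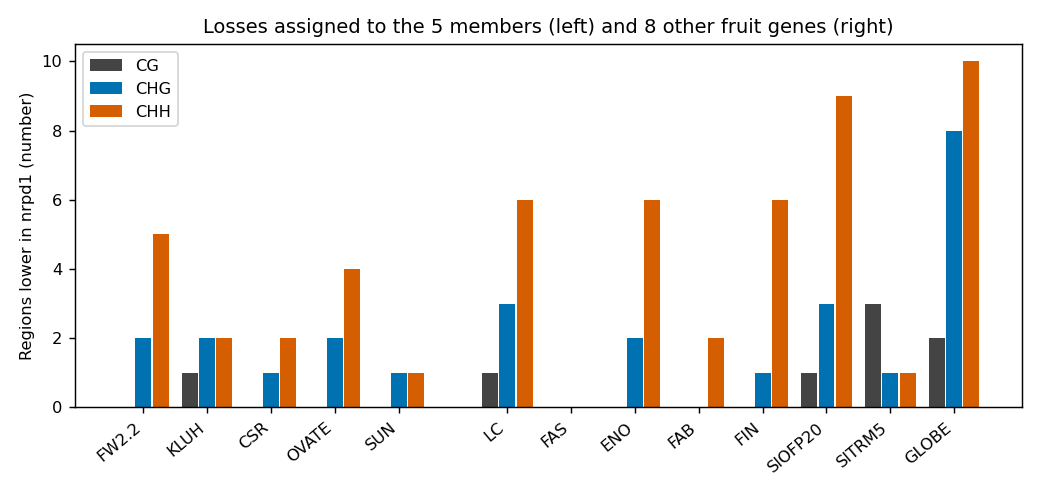
Number of regions lower in nrpd1 than in WT embryos (y axis) assigned to each gene, by context (bar colour), for the 5 members on the left and the 8 other fruit size and shape genes on the right. FW2.2 has the most CHH losses of the members, 5, and GLOBE the most of the others, 10. FAS has none.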

How the data were processed

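Genomic DNA of the embryos was bisulfite-converted before sequencing, per the labels' protocols. Trim Galore 0.6.7 and Bismark 0.24.0 are named in the submitters' processing notes. The region caller, its thresholds, the annotation tool and the conversion rate are not stated in those sources; incomplete conversion would raise apparent CHH levels most. The authors gave each region's methylation as a fraction, 1 mean per genotype, per the file headers, printed here as percentages. Differences are nrpd1 minus WT in percentage points. The deposited region statistic is a score with no fixed range, used only to select regions in an alternative. Other deposited columns hold widths, cytosine numbers and distances.

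No listed region differed by under 10 points. Coordinates are those deposited, in SL4.0; the length column exceeds the width by 1 in all 132092 regions, so starts may be shifted by 1 base. Rows were selected, counted and averaged with Python 3.11.15 and pandas 2.3.3. Simulated regions served to check the direction of change, the promoter label and the pattern search. Percentiles, overlaps, distances to gene starts and weighting by unequal widths were not checked in this way. Percentiles are shares of losses in the same context with a smaller value. Every member was named, together with the other genes that had promoter or body losses in more than 1 context and, for each member, the closest pattern; 2 closest genes per member were computed. The members and gene lists were chosen with earlier results of these data known.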

Additional observations from a re-analysis of the deposited data

How the results depend on the processing

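No paired analysis was possible because the deposited lists hold 1 mean per genotype, which also kept single replicates from being left out. With at least 20 points required, 3 CHH losses remained, with a median difference of -26.1 points, and 2 members and 1 of the other genes had a CHH loss in promoter or body. Among the 50% of regions with the larger authors' statistic, 0 CG, 5 CHG and 6 CHH losses were counted. The CHH median was then -22.1 points, and 3 members and 2 other genes had such a CHH loss. Shares of all named genes were not counted under these stricter settings, so the lower counts cannot be read as particular to the members. Promoter and gene body regions alone gave 0 CG, 4 CHG and 8 CHH losses and a CHH median of -13.8 points. A mean weighted by width gave -19.1 points in CHH. Weighting by cytosines in place of width gave -26.1 points for FW2.2 CHG, -19.95 for FW2.2 CHH, -19.7 for KLUH CHG, -19.5 for KLUH CHH, -22.9 for CSR CHH, -23.9 for OVATE CHG and -14.7 for OVATE CHH. Regions within 5 kb of the gene start gave the same counts. Leaving out exons of other genes was chosen after seeing the data, and it changed the number of members with a CHG loss in promoter or gene body to 2, against 3 with such exons. Since the read depth is unknown, a missing region does not show that methylation there was the same in both genotypes.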

Other observations

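Within 5 kb of the 5 genes, 6 further regions were assigned by the authors to neighbouring genes, and all 6 were losses in nrpd1 embryos. Of these, 3 lay near OVATE, 2 near CSR and 1 near KLUH, with none near FW2.2 or SUN. Upstream of OVATE, on chromosome 2, a CG loss (46376433 to 46376501) had 45.8% in nrpd1 embryos and 72.8% in WT embryos. A CHG loss beside it (46375669 to 46376165) had 41.2% in nrpd1 embryos and 69.4% in WT embryos. A CHH loss (46375591 to 46376582) that spans both had 5.30% in nrpd1 embryos and 20.6% in WT embryos. This is the site near the members at which losses in all 3 contexts were listed together, and by the deposited assignment it does not count for OVATE.

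Past the end of CSR, on chromosome 11, a CHH loss (53333274 to 53333737) was annotated to the promoter of the next gene and had 7.22% in nrpd1 embryos and 18.5% in WT embryos. The other regions near CSR and KLUH were also CHH losses. The one near CSR had 3.95% in nrpd1 embryos and 17.6% in WT embryos, and the one near KLUH had 5.45% in nrpd1 embryos and 28.4% in WT embryos.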
